A study of Mus musculus with 30 samples.

Results

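The genes described here encode subunits of the mitochondrial respiratory chain and ATP synthase, and were followed in mouse left ventricle across diet, HCM genotype and sex. Genes were chosen by symbol from the platform annotation: every Nduf, Uqcr and Atp5 gene, Sdha to Sdhd, the Cox4 to Cox8 families, Cyc1 and Cycs. The rule found 73 genes among 8251 named genes on the array. Of these, 29 belonged to complex I, 2 were complex I assembly factors that share the Nduf prefix (Ndufaf1 and Ndufaf4), 4 belonged to complex II, 8 to complex III, 15 to complex IV and 14 to complex V, and 1 was cytochrome c. Each gene was read from 1 probe set, the brightest over the 30 arrays. For 19 genes the name of that probe set carries a letter that marks a probe design other than the standard one. Among these are Cox6b2, Atp5g1, Ndufb2, Cox4i1, Cox6a1 and Cox8b. Expression is given on the log2 scale, so a difference of 1 is a doubling.

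The series measured hearts of C57BL/6 mice at 2 months of age on Affymetrix arrays. The 8 groups were female and male HCM mice on a casein-based diet, female and male wild-type (wt) mice on that diet, female and male HCM mice on a soy-based diet, and female and male wt mice on the soy diet. Each soy HCM group had 3 arrays and each other group had 4, and the RNA of 2 animals was pooled for each array. HCM usually abbreviates hypertrophic cardiomyopathy, but the labels do not spell it out and name no mutation, promoter or line for these mice. The labels do not say whether the pools of a group were raised or processed apart, so the p-values reflect only the variation among these pools, which may be partly technical.

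The respiratory chain passes electrons from NADH and succinate to oxygen and uses the energy to pump protons across the inner mitochondrial membrane. Complex I oxidises NADH, complex II oxidises succinate, complex III passes electrons on to cytochrome c, and complex IV (cytochrome c oxidase) reduces oxygen. Complex V, the ATP synthase, uses the proton gradient to make ATP, and the beating heart draws most of its ATP from this pathway. Several complex IV subunits exist as related genes, with a form found in heart and skeletal muscle beside a form found in most tissues.

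Some facts of the arrays touch every result below. Correlations between arrays ran between 0.930 and 0.997. The 6 measured cardiomyocyte markers of 8 listed (Myh6, Tnnt2, Tnni3, Actc1, Myl2 and Ryr2) all lay in the top 5 percent of genes by brightness. Their summed level had a median of log2 15.38 on casein HCM arrays (range 15.31 to 15.43) and 15.26 on casein wt arrays (15.15 to 15.31). It had a median of 15.14 on soy HCM arrays (15.08 to 15.20) and 14.90 on soy wt arrays (14.58 to 14.95). In whole ventricle, fewer cells of a type and less RNA per cell cannot be told apart. The spiked control RNAs separated the diet and genotype combinations. DapX read log2 7.18 to 8.07 on casein HCM arrays and at most 4.70 elsewhere, and the casein wt arrays fell into a pair of sets by BioD minus BioC. That difference was 1.38 to 1.74 in set A (both sexes, replicates 1 and 2) and 0.64 to 0.80 in set B (replicates 3 and 4). Diet and genotype differences were therefore also differences between array sets, and their contributions cannot be told apart. Some results below are also given with the sets fitted as random blocks. The correlation used there could come only from the split of casein wt, as every other combination was a single set. Those values assume that correlation everywhere and cannot separate a set from its diet and genotype.

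In wild-type hearts, most respiratory chain genes read higher on casein than on soy. Of the 73 genes, 53 rose on casein and 4 fell (two-sided limma test, Benjamini-Hochberg adjusted p below 0.05 over all named genes). Over all 8251 genes, 21.6% rose and 25.4% fell. The median difference was 0.32 on the log2 scale for the 73 genes and -0.02 for all genes. All 8 complex III genes rose, as did 21 of 29 complex I, 3 of 4 complex II, 11 of 15 complex IV and 9 of 14 complex V genes. The wt count varied with the casein wt set: without set A 58 of the 73 genes rose and 3 fell, and without set B 39 rose and 4 fell. Over all 8251 genes, 1858 rose and 2147 fell without set A, and 1402 and 1521 without set B. In HCM hearts, 52 genes rose on casein and 5 fell, against 31.9% and 30.1% of all genes, with medians of 0.36 for the 73 genes and 0.01 for all. The diet comparisons of HCM and wt hearts share no arrays, and 42 genes rose on casein in both genotypes while 2 (Atp5g1 and Cox8c) fell in both. How many of all genes did so in both was not counted, so these joint counts have no background beside them. The cardiomyocyte markers rose on casein too, 5 of 6 in HCM hearts (1 fell) and 6 of 6 in wt hearts. In HCM hearts 4 of 5 smooth muscle and pericyte markers and 2 of 3 atrial markers rose on casein as well. Their summed levels were log2 10.43 to 11.18 for smooth muscle and 8.67 to 11.08 for atrium on casein HCM arrays, against 10.05 to 10.34 and 8.27 to 9.19 on soy HCM arrays. Also in HCM hearts, 2 of 4 adipocyte markers rose and 1 fell, and 1 of 5 endothelial markers rose and 2 fell. In wt hearts 2 of 3 atrial and 3 of 5 macrophage markers fell on casein. There 2 of 5 smooth muscle and pericyte, 2 of 5 endothelial and 1 of 5 macrophage markers rose. The part of these markers in the counts was not tested.

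**Figure D1:**
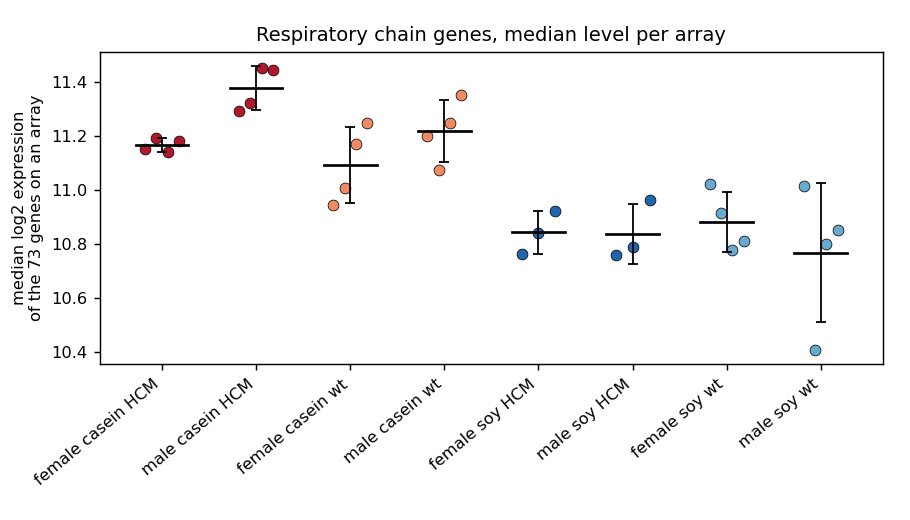
Median log2 expression of the 73 genes on each array (y axis) for the 8 groups (x axis). Points are arrays, horizontal lines group means and bars 1 SD. Casein groups have higher means than soy groups of the same genotype and sex, and the lowest array, at 10.41, is male soy wt replicate 2.

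The diet difference went with the brightness of the probe set, in genes outside the chain as well. Brightness partly reflects the probes, so it is used here to sort genes and not to compare their transcript levels. Of the 73 genes, 48 had a mean above log2 10. Among the other 240 named genes above log2 10, 56.3% rose on casein in HCM hearts, with a median difference of 0.24, and 72.9% rose in wt hearts, with a median of 0.34. Of the 48 bright respiratory chain genes, 39 rose on casein in HCM hearts (81.3%, median 0.47) and 42 in wt hearts (87.5%, median 0.36). The 95th percentile of genes outside the chain was also higher on casein arrays. Its median was 9.66 on casein HCM arrays, 9.53 and 9.64 on sets A and B of casein wt, 9.45 on soy HCM arrays and 9.42 on soy wt arrays. When quantile normalization was added to the deposited values, 37 of the 73 genes rose on casein and 15 fell in HCM hearts (median 0.18), and 29 rose and 9 fell in wt hearts (median 0.07). Under that setting 2511 of all 8251 genes rose and 2545 fell in HCM hearts, and 1785 rose and 1800 fell in wt hearts.

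**Figure D2:**
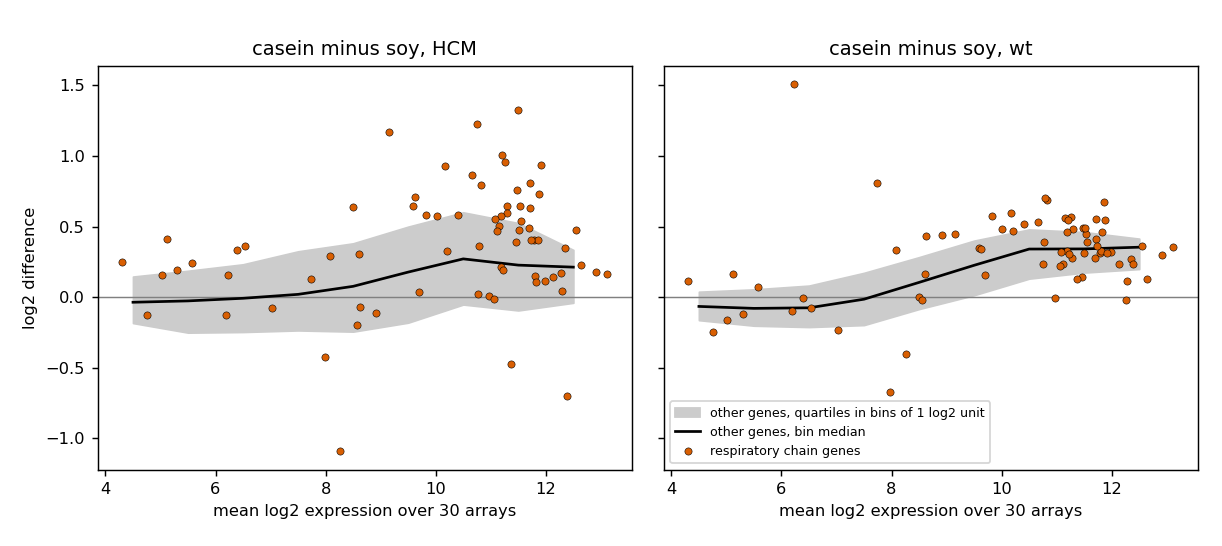
Log2 difference between casein and soy (y axis) against mean log2 expression over 30 arrays (x axis), in HCM (left) and wt hearts (right). Orange points are the 73 respiratory chain genes, the black line is the median of the other genes in bins of 1 log2 unit, and the grey band spans their quartiles. Between log2 10 and 11 the median of other genes is 0.27 in HCM hearts and 0.34 in wt hearts. In HCM hearts 4 chain genes, with mean levels of log2 9.16 to 11.49, lie above a difference of 1.

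Among complex I genes, the 4 measured core subunits (Ndufs1, Ndufs3, Ndufv1 and Ndufv2), which belong to the arm that takes electrons from NADH, all rose on casein in wt hearts, as did 17 of 25 accessory subunits. Ndufb11, an accessory subunit of the membrane arm, had log2 values of 10.90, 11.18 and 11.37 on casein wt, against 10.07, 10.50 and 10.72 on soy wt (lowest, median and highest of 8 arrays each). The arrays of these groups did not overlap, and the difference was 0.69 ± 0.07 (SE; adjusted p = 1.02e-08). In HCM hearts the largest rise of the chain was that of Ndufb8, another membrane arm subunit. It read 12.07, 12.18 and 12.26 on casein HCM, against 10.60, 10.87 and 11.03 on soy HCM (8 and 6 arrays). The groups were more than 1 log2 unit apart at their nearest arrays, with a difference of 1.33 ± 0.07 (2.51-fold, adjusted p = 6.73e-15). Ndufa6, an accessory subunit of the LYR protein family, read 9.73, 9.88 and 10.07 on casein HCM, against 8.42, 8.78 and 8.89 on soy HCM. Its difference was 1.17 ± 0.13 (adjusted p = 8.78e-09) and the groups did not overlap.

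Ndufv1, the flavoprotein that takes electrons from NADH, moved the other way in HCM hearts. It read 11.73, 11.98 and 12.07 on casein HCM, against 12.54, 12.61 and 12.73 on soy HCM. Every casein HCM array lay below every soy HCM array, with a difference of -0.70 ± 0.06 (adjusted p = 6.83e-11). In wt hearts Ndufv1 read 12.52, 12.68 and 12.78 on casein wt, against 12.09, 12.46 and 12.56 on soy wt, a difference of 0.23 ± 0.05 (adjusted p = 0.00095) with overlapping groups. That wt call ended with quantile normalization (0.02, adjusted p = 0.753) and without set B (0.16, adjusted p = 0.0613). In the fit of all arrays it was 1 gene of the 73, and the only one, that passed the threshold in opposite directions on casein in HCM and wt hearts. Its neighbour in the flavoprotein module, Ndufv2, rose on casein in both, by 0.55 ± 0.07 (adjusted p = 9.23e-08) in HCM hearts and 0.32 ± 0.06 (adjusted p = 0.00018) in wt hearts.

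Complex II joins the respiratory chain to the tricarboxylic acid cycle, and its 4 subunits did not move together. Sdhb, the iron-sulphur subunit, rose on casein by 0.81 ± 0.07 (adjusted p = 4.64e-11) in HCM hearts and by 0.55 ± 0.06 (adjusted p = 4.83e-08) in wt hearts. Sdhc, a membrane anchor, read 10.79, 10.96 and 11.17 on casein HCM, against 11.34, 11.46 and 11.49 on soy HCM. The groups did not overlap, and Sdhc fell by 0.47 (SE 0.09, adjusted p = 6.34e-05). In wt hearts its difference of 0.13 had a 95% interval between -0.05 and 0.30. Sdha, the flavoprotein that binds succinate, rose on casein in wt hearts by 0.44 ± 0.13 (adjusted p = 0.00669). That call ended when casein wt set B was left out, which gave 0.12 (adjusted p = 0.488), while without set A the difference was 0.76. In HCM hearts the Sdha difference was -0.11, with a 95% interval between -0.40 and 0.18. Sdhd, the other anchor, rose on casein in wt hearts by 0.22 ± 0.07 (adjusted p = 0.00909), and its difference in HCM hearts was -0.02, with an interval between -0.17 and 0.13. Quantile normalization turned the wt difference of Sdhd to -0.11, and with the sets of arrays fitted as random blocks neither Sdhd (adjusted p = 0.104) nor Sdha (0.0597) passed there.

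In complex III, 7 of 8 genes rose on casein in HCM hearts as well. Uqcrh, the hinge protein that helps cytochrome c1 bind cytochrome c, read 11.72, 11.80 and 11.88 on casein HCM, against 10.62, 10.81 and 10.90 on soy HCM. In wt hearts it read 11.12, 11.37 and 11.46 on casein wt, against 10.57, 10.78 and 10.95 on soy wt. Neither pair of groups overlapped, and the differences were 1.01 ± 0.06 (adjusted p = 7.89e-14) in HCM hearts and 0.55 ± 0.06 (adjusted p = 8.59e-09) in wt hearts. Uqcrb, a small subunit near the quinone site, read 10.72, 11.09 and 11.35 on casein wt, against 9.76, 10.44 and 10.62 on soy wt. Its groups did not overlap in wt hearts, with a difference of 0.70 ± 0.10 (adjusted p = 9.03e-07). Uqcrc1, one of the pair of core proteins, rose by 0.46 ± 0.06 (adjusted p = 3.4e-07) in wt hearts, while in HCM hearts its difference was 0.11 ± 0.06 (adjusted p = 0.133).

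Of the cytochromes, Cyc1 (cytochrome c1) rose on casein by 0.35 ± 0.06 (adjusted p = 2e-05) in HCM hearts and by 0.27 ± 0.06 (adjusted p = 0.00027) in wt hearts. A dimmer probe set of Cyc1 gave -0.42 in HCM hearts and -0.85 in wt hearts, so the direction for Cyc1 rests on the probe set used. With quantile normalization the wt rise of Cyc1 was 0.02 (adjusted p = 0.714). Cycs, the soluble carrier cytochrome c, read 8.78, 8.95 and 9.14 on casein HCM, against 8.44, 8.63 and 8.84 on soy HCM, a difference of 0.30 ± 0.12 (adjusted p = 0.0367) with overlapping groups. In wt hearts the Cycs difference was 0.17, with a 95% interval between -0.07 and 0.40. The Cycs rise in HCM hearts did not pass with quantile normalization (adjusted p = 0.133) or random set blocks (0.181).

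Complex IV held the widest spread. Cox7a1, the heart and muscle form of its subunit, read 11.30, 11.49 and 11.56 on casein HCM, against 10.08, 10.22 and 10.41 on soy HCM. The groups did not overlap, and the difference was 1.23 ± 0.09 (2.34-fold, adjusted p = 5.3e-12). In wt hearts it read 10.20, 10.76 and 10.90 on casein wt, against 10.12, 10.57 and 10.75 on soy wt, with overlapping groups and a difference of 0.23 ± 0.08 (adjusted p = 0.0244). With quantile normalization that wt value was -0.03 (adjusted p = 0.687), without set B it was 0.13 (adjusted p = 0.337), and it did not pass with random set blocks (adjusted p = 0.16). Its counterpart Cox7a2, found in most tissues, rose by 0.49 ± 0.07 (adjusted p = 2.06e-06) in HCM hearts and 0.28 ± 0.07 (adjusted p = 0.0013) in wt hearts, where quantile normalization turned it to -0.06. Cox7a2l, which encodes a related protein, rose by 0.65 ± 0.08 (adjusted p = 6e-08) in HCM hearts and 0.35 ± 0.07 (adjusted p = 0.000302) in wt hearts.

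The Cox6a pair rose on casein in both genotypes. Cox6a1, the form found in most tissues, read 11.04, 11.16 and 11.19 on casein HCM, against 10.16, 10.27 and 10.43 on soy HCM, with no overlap and a difference of 0.87 ± 0.07 (adjusted p = 3.87e-11). Cox6a2, the heart and muscle form, read 13.17, 13.24 and 13.30 on casein HCM, against 12.99, 13.08 and 13.14 on soy HCM, also with no overlap and a difference of 0.16 ± 0.06 (adjusted p = 0.0123). Quantile normalization turned this difference to -0.19, and it did not pass with random set blocks (adjusted p = 0.121). In wt hearts Cox6a1 rose by 0.53 ± 0.07 (adjusted p = 2.46e-07) and Cox6a2 by 0.36 ± 0.05 (adjusted p = 2.22e-06). With quantile normalization that wt rise of Cox6a2 was 0.08 (adjusted p = 0.132). Of the Cox8 genes, Cox8b, the heart and muscle form in mice, rose by 0.54 ± 0.06 (adjusted p = 1.01e-08) in HCM hearts and 0.39 ± 0.06 (adjusted p = 1.71e-06) in wt hearts, where it was 0.07 (adjusted p = 0.346) with quantile normalization. Cox8a, the widely expressed form, was dim here, with a mean of log2 4.30 over all arrays. Cox8c, known from testis, fell on casein in both genotypes. It read 7.44, 7.58 and 7.69 on casein HCM, against 8.57, 8.66 and 8.72 on soy HCM, with no overlap and a difference of -1.09 ± 0.06 (adjusted p = 2.94e-15). In wt hearts it was -0.40 ± 0.05 (adjusted p = 3.48e-07), also with no overlap.

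The largest wt diet difference of the chain belonged to Cox6b2, also known as a testis form. It read 6.78, 6.91 and 7.11 on casein wt, against 5.15, 5.42 and 5.66 on soy wt, a difference of 1.51 ± 0.07 (2.85-fold, adjusted p = 1.17e-15) with no overlap. The other 2 probe sets of Cox6b2 gave 0.02 and -0.05 in the same comparison, so its probe sets disagree. Cox6b1, its widely expressed partner, read 6.75, 6.96 and 7.34 on casein wt, against 7.09, 7.23 and 7.46 on soy wt. It fell by 0.23 (SE 0.07, adjusted p = 0.00408) with overlapping groups, a call that ended without set B (adjusted p = 0.0566) and with random set blocks (0.0682). Cox4i1, which takes part in the control of complex IV by ATP, read 7.90, 8.17 and 8.46 on casein wt, against 7.04, 7.37 and 7.47 on soy wt. The groups did not overlap and the difference was 0.81 ± 0.07 (adjusted p = 3.88e-10). Cox6c rose on casein by 0.67 ± 0.09 (adjusted p = 5.69e-07) in wt hearts, and of its dimmer probe sets one gave 1.20 and the other -0.73. Cox5a was dim, with a mean of log2 4.76, and fell on casein in wt hearts by 0.24 (SE 0.08, adjusted p = 0.0102), a call that ended without set A (adjusted p = 0.0961), with the mean of probe sets (0.302) and with random set blocks (0.109).

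In complex V, the 4 measured genes of the catalytic head and central stalk (Atp5a1, Atp5c1, Atp5d and Atp5e) all rose on casein in wt hearts, and 3 of them did in HCM hearts. Atp5e, a small stalk subunit, read 11.50, 11.73 and 11.98 on casein HCM, against 10.55, 10.78 and 10.96 on soy HCM. Its difference was 0.96 ± 0.08 (adjusted p = 1.81e-11) with no overlap. Atp5g1, which encodes the c subunit of the proton-driven ring, fell on casein in both genotypes. It read 7.64, 7.73 and 8.08 on casein HCM, against 8.07, 8.20 and 8.33 on soy HCM. In wt hearts it read 7.54, 7.65 and 7.82 on casein wt, against 8.18, 8.33 and 8.48 on soy wt. The wt groups did not overlap and the HCM groups did, with differences of -0.42 ± 0.05 (adjusted p = 1.63e-07) in HCM hearts and -0.67 ± 0.05 (adjusted p = 2.67e-11) in wt hearts. A dimmer probe set of Atp5g1 gave -0.74 in HCM hearts and 0.03 in wt hearts. Atp5g2, which encodes the same mature protein, rose by 0.43 ± 0.08 (adjusted p = 5.34e-05) on casein in wt hearts. Atp5mpl, a small membrane subunit, and Ndufb5, of complex I, passed in none of the 4 diet and genotype comparisons.

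**Figure D3:**
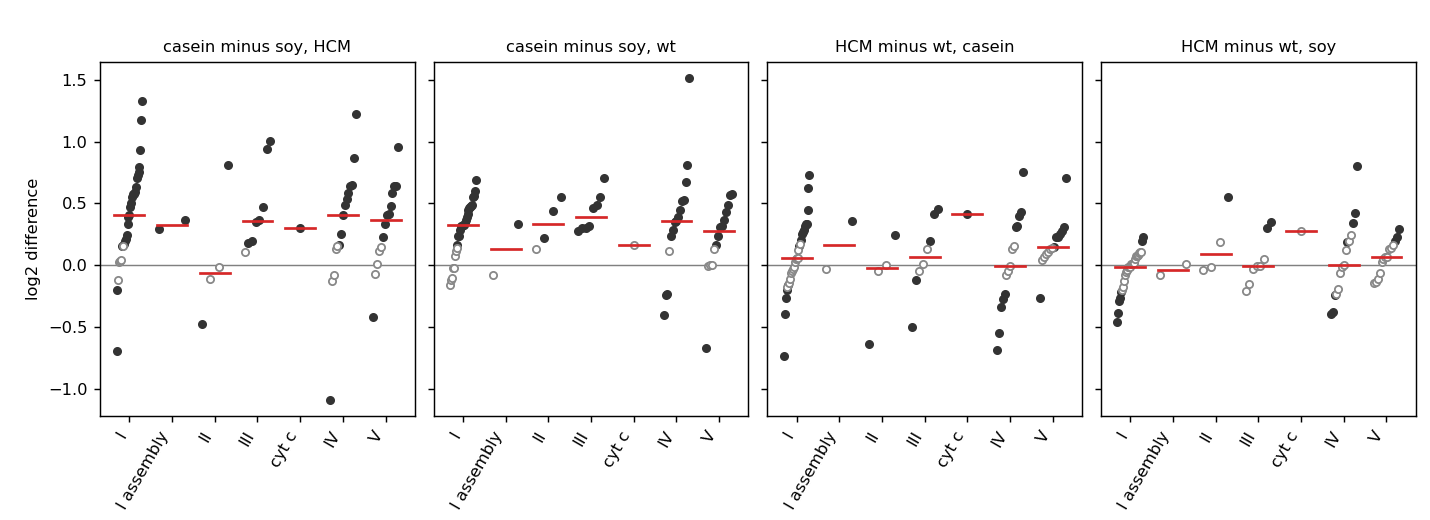
Log2 difference (y axis) of each of the 73 genes by complex (x axis) in the 4 comparisons. Filled points passed an adjusted p of 0.05, open points did not, and red lines are medians of each complex. The casein comparisons lie mostly above 0, with complex III medians of 0.36 in HCM and 0.39 in wt hearts, and the HCM comparisons scatter on both sides of 0.

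HCM was compared with wild type within each diet. On casein, 29 of the 73 genes rose in HCM hearts and 14 fell, against 26.9% and 22.7% of all genes, and the median difference was 0.11 for the chain and 0.01 for all genes. By complex, 11 of 29 complex I genes rose and 5 fell, 7 of 14 complex V genes rose and 1 fell, and complex IV split into 5 that rose and 5 that fell. The counts depended on the wt arrays and the scaling. Without set A of the casein wt arrays 14 genes rose and 18 fell, without set B 35 rose and 11 fell, and with quantile normalization 25 rose and 23 fell. Over all 8251 genes, 2054 rose and 1619 fell without set A, and 1916 and 1659 without set B. With quantile normalization these were 1952 and 2131. Set A minus set B, a comparison made after seeing these sets, gave 0 of the 73 genes higher and 14 lower, against 5.88% and 5.66% of all genes. Cell markers moved in the same comparison: 4 of 5 smooth muscle and pericyte markers and 2 of 3 atrial markers rose. So did 3 of 4 adipocyte, 3 of 6 fibroblast, 3 of 6 cardiomyocyte, 2 of 4 skeletal muscle and 2 of 5 macrophage markers. Of the markers that fell, 2 of 5 were endothelial, and 1 each was a fibroblast, cardiomyocyte and macrophage marker. The summed smooth muscle level was log2 10.43 to 11.18 on casein HCM arrays and 9.79 to 10.41 on casein wt arrays. The summed atrial level was 8.67 to 11.08 on casein HCM arrays and 7.90 to 9.07 on casein wt arrays. The summed skeletal muscle level was 11.79 to 12.35 on casein HCM arrays and 10.43 to 11.52 on casein wt arrays. The part of these markers in the results was not tested.

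The rises on casein were led by Cox7a1, Ndufa6 and Atp5k. Cox7a1 read 11.30, 11.49 and 11.56 on casein HCM, against 10.20, 10.76 and 10.90 on casein wt, with no overlap and a difference of 0.76 ± 0.08 (1.69-fold, adjusted p = 3.1e-08). Ndufa6 read 9.73, 9.88 and 10.07 on casein HCM, against 8.58, 9.27 and 9.54 on casein wt, again with no overlap and a difference of 0.73 ± 0.12 (adjusted p = 1.13e-05). Atp5k, subunit e of the membrane part of ATP synthase, which helps ATP synthase form dimers, read 8.70, 8.96 and 9.28 on casein HCM, against 8.12, 8.30 and 8.49 on casein wt. All casein HCM arrays were higher, with a difference of 0.70 ± 0.08 (adjusted p = 2.32e-08). Ndufb8 rose by 0.63 ± 0.07 (adjusted p = 1.06e-08), with no overlap. Without set A the differences of Cox7a1, Ndufa6, Atp5k and Ndufb8 were 0.66, 0.49, 0.66 and 0.49, and without set B they were 0.86, 0.96, 0.75 and 0.76. These 8 values all passed the threshold.

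The falls on casein were led by Ndufv1, Cox8c and Sdhc. Ndufv1 read 11.73, 11.98 and 12.07 on casein HCM, against 12.52, 12.68 and 12.78 on casein wt, a difference of -0.73 ± 0.05 (0.602-fold, adjusted p = 2.44e-11). Cox8c read 7.44, 7.58 and 7.69 on casein HCM, against 8.11, 8.31 and 8.38 on casein wt, a difference of -0.69 ± 0.05 (adjusted p = 2.44e-11). Sdhc read 10.79, 10.96 and 11.17 on casein HCM, against 11.37, 11.64 and 11.80 on casein wt, a difference of -0.64 ± 0.08 (adjusted p = 4.65e-07). None of the 3 overlapped between genotypes. Cox6b2 fell by 0.55 (SE 0.07, adjusted p = 4.49e-07), Uqcrc1 by 0.50 (SE 0.06, adjusted p = 6.17e-08) and Cox4i1 by 0.34 (SE 0.07, adjusted p = 0.000184). The fall of Cox6b2 rests on 1 of its 3 probe sets, which disagree in the other comparisons. Ndufb2, an accessory subunit, fell by 0.26 (SE 0.06, adjusted p = 0.000494), and its 3 dimmer probe sets gave -0.0019, 0.27 and 0.38. Cycs rose by 0.42 ± 0.12 (adjusted p = 0.00377), although without set A its difference was 0.21 (adjusted p = 0.192), and with random set blocks its adjusted p was 0.0517. The comparison of HCM with wt on casein and that of casein with soy in HCM mice both use the casein HCM arrays, so their values are not independent.

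**Figure D4:**
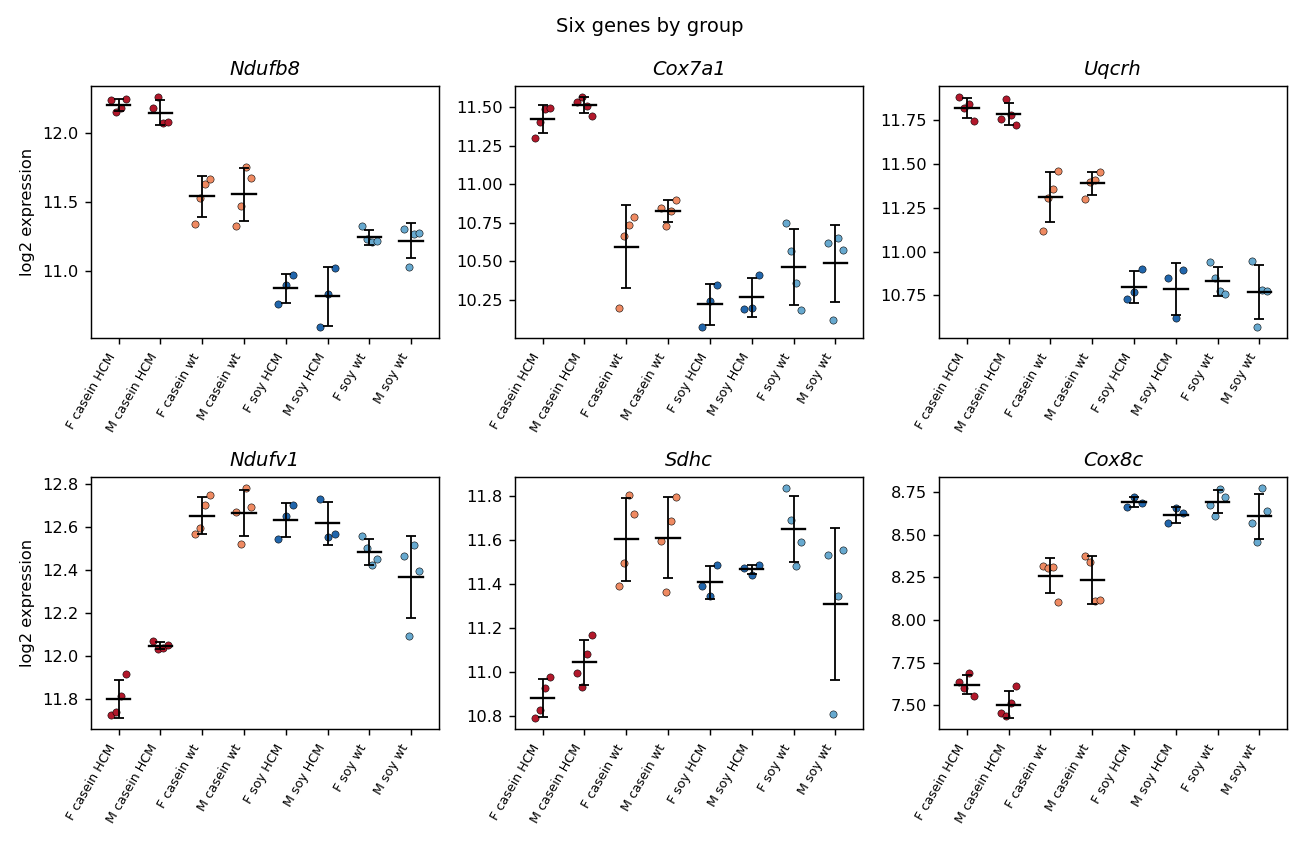
Log2 expression (y axis) of 6 genes on each array, by group (x axis). Points are arrays, horizontal lines means and bars 1 SD. Ndufb8, Cox7a1 and Uqcrh are highest in the casein HCM groups, and Ndufv1 and Cox8c are lowest there; Sdhc is also low there, with 1 male soy wt array at 10.81.

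On soy, 12 of the 73 genes rose in HCM hearts and 8 fell, against 12.3% and 12.7% of all genes, and the medians were 0.01 for the chain and -0.01 for all genes. Of 73 genes these are shares near the background. In complex I, 2 of 4 core subunits rose and 0 fell, and 0 of 25 accessory subunits rose and 5 fell, by limma. Without male soy wt replicate 2, the array lowest for these genes, 13 fell, as did 1051 of all 8251 genes. Sdha read 9.04, 9.08 and 9.28 on soy HCM, against 7.68, 8.66 and 8.99 on soy wt, with no overlap and a difference of 0.55 ± 0.14 (adjusted p = 0.00537). Cox6b2 rose by 0.80 ± 0.08 (adjusted p = 4.76e-08), while its other probe sets gave -0.32 and -0.41. Cox6c rose by 0.42 ± 0.10 (adjusted p = 0.00205), Uqcrb by 0.35 ± 0.10 (adjusted p = 0.0141) and Cox4i1 by 0.34 ± 0.07 (adjusted p = 0.00182). All 6 cardiomyocyte markers and 3 of 5 endothelial markers also rose in HCM hearts on soy, and 2 of 3 atrial markers fell. The summed endothelial level was log2 10.02 to 10.39 on soy HCM arrays and 9.45 to 10.18 on soy wt arrays, and the summed atrial level 8.27 to 9.19 on soy HCM arrays and 8.70 to 10.06 on soy wt arrays. The part of these markers was not tested.

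Among the genes that fell in HCM hearts on soy was Ndufb2, which read 11.89, 11.98 and 12.10 on soy HCM, against 12.18, 12.41 and 12.73 on soy wt, a difference of -0.46 ± 0.06 (adjusted p = 1.01e-05) with no overlap. This value came from the brightest of its 4 probe sets, and the other readings on soy are not reported here. Ndufb8 read 10.60, 10.87 and 11.03 on soy HCM, against 11.04, 11.25 and 11.33 on soy wt. The nearest arrays were almost equal but did not overlap, and the difference was -0.39 ± 0.07 (adjusted p = 0.000307). Cox5a fell by 0.39 (SE 0.08, adjusted p = 0.00118) and Cox8b by 0.38 (SE 0.06, adjusted p = 4.87e-05). With quantile normalization 10 genes rose and 18 fell, and over all 8251 genes 1061 rose and 1144 fell. With the sets of arrays fitted as random blocks, 1 rose and 3 fell, and the soy differences of Sdha (adjusted p = 0.118), Cox6c (0.101), Uqcrb (0.212), Cox4i1 (0.0857) and Cox5a (0.0836) no longer passed. Over all 8251 genes 158 rose and 101 fell with these blocks. Each side of the soy comparison was a single set, so the blocks cannot separate set from genotype.

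The HCM difference changed with diet for 33 of the 73 genes, tested as the HCM difference on casein minus that on soy. Of these, 22 were positive and 11 negative, against 25.0% and 20.1% of all genes, and the 33 genes (45.2%) lie at the background of 45.1% in either direction. The largest positive value was that of Ndufb8, at 1.01 ± 0.10 (adjusted p = 3.63e-09), with an HCM difference of 0.63 on casein and -0.39 on soy. Cox7a1 followed at 0.99 ± 0.12 (adjusted p = 3.87e-07), Ndufa6 at 0.72 ± 0.17 (adjusted p = 0.00137) and Atp5k at 0.64 ± 0.11 (adjusted p = 4.9e-05). The most negative values were those of Cox6b2 at -1.35 ± 0.11 (adjusted p = 1.29e-10) and Ndufv1 at -0.93 ± 0.08 (adjusted p = 7.45e-10). The value of Cox6b2 rests on 1 of 3 probe sets: the other 2 gave 0.23 and 0.43, and the mean of its probe sets -0.23. Of the 33 genes, 23 had HCM differences of opposite sign on the 2 diets, and in 5 of them (Atp5g2, Cox4i1, Cox6b2, Ndufb8 and Ndufv1) both differences passed. Of these 5, the soy differences of Cox4i1 and Ndufv1 did not pass with random set blocks (adjusted p = 0.0857 and 0.218), and the other probe sets of Cox6b2 had the opposite sign on soy. HCM moved 6 genes past the threshold in the same direction on both diets: Atp5md and Uqcrc2 rose, and Cox5a, Cox8b, Ndufa10 and Ndufb2 fell. The casein fall of Ndufb2 turned to a rise with the mean of its 4 probe sets, and Cox5a was dim, with a mean of log2 4.76. How many of all genes had such opposite or same-direction differences was not counted, so these counts have no background. With the sets of arrays fitted as random blocks the interaction count was 13, while 1015 of all 8251 genes were positive and 852 negative. Markers moved in the same test: 4 of 5 smooth muscle and pericyte, 2 of 3 atrial, 3 of 4 adipocyte and 2 of 5 macrophage markers were positive, and 3 of 6 cardiomyocyte and 2 of 5 endothelial markers negative. Of 4 skeletal muscle markers 2 were positive and 1 negative, and the part of these markers was not tested.

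**Figure D5:**
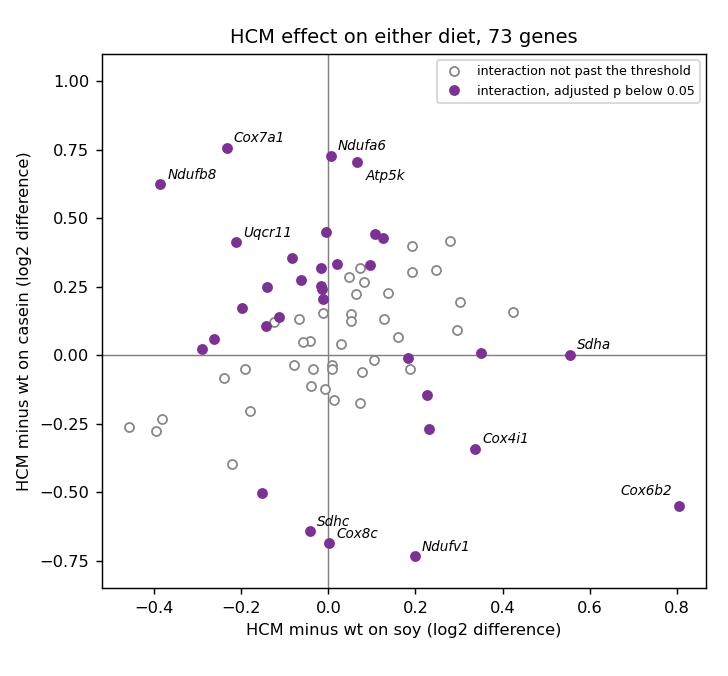
Log2 difference between HCM and wt on casein and on soy for the 73 genes. Marked points are the 33 genes whose HCM difference changed with diet (adjusted p below 0.05). Ndufb8 and Cox7a1 combine positive differences on casein (0.63 and 0.76) with negative ones on soy, and Cox6b2 and Ndufv1 the opposite.

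Upstream sequence is shown for 4 genes that were higher in casein HCM hearts than in the other combinations: Ndufb8, Cox7a1, Atp5k and Cox6a1. Being highest there is how they were picked, and their other differences were not alike: on casein in wt hearts Cox6a1 differed by 0.53 and Atp5k by 0.00. Nuclear respiratory factor 1 (NRF-1), the ETS-family factor GABP, YY1 and the oestrogen-related receptors (ERR) are known regulators of respiratory chain genes. Words standing for their sites were GCGCATGCG (NRF-1), CCGGAAG (ETS core), AAGATGGCG (YY1) and TCAAGGTCA (ERR), searched on both strands in RefSeq windows (GRCm38.p6) of 250 bases before and 50 after the start. The NRF-1 word overlaps its own reverse complement, so a palindromic match is counted once. The 250 bases before the start are printed 5′ to 3′ on the gene's strand, with matches in capitals. They span chr19:44555443-44555692 (minus strand), chr7:30183921-30184170 (plus), chr5:108434400-108434649 (minus) and chr5:115348959-115349208 (minus).
Ndufb8: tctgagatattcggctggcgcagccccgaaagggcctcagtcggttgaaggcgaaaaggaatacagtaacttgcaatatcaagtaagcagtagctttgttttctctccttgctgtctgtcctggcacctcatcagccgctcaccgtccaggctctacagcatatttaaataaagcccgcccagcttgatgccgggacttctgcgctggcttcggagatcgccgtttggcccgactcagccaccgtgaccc
Cox7a1: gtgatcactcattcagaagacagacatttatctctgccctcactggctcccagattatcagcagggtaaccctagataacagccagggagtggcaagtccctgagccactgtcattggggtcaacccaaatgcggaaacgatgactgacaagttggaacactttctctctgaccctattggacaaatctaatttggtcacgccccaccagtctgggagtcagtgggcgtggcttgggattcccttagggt
Atp5k: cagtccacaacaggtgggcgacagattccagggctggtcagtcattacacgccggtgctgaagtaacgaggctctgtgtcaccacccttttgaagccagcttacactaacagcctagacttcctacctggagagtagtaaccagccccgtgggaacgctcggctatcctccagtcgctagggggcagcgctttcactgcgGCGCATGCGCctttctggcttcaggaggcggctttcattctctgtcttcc
Cox6a1: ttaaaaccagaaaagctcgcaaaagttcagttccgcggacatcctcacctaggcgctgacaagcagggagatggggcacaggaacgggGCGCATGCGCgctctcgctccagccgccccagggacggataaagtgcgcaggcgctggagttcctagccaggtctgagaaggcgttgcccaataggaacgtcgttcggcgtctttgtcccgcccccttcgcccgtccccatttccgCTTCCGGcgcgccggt

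In Atp5k the capitals mark the NRF-1 word, and its window also held the ETS core, within the 50 bases after the start that are not printed. In Cox6a1 the capitals mark the NRF-1 word and, nearer the start, the ETS core on the other strand. The printed Ndufb8 and Cox7a1 stretches hold none of the 4 words. Windows were found for 59 of the 73 genes (64 windows). The NRF-1 word was in 9 of these windows (14.1%) and in 1.75% of all 32851 windows. The ETS core was in 16 (25.0%) and in 8.86% of all. The YY1 word was in 5 (7.81%) and in 1.40% of all, and the ERR word in 1 (1.56%) and in 0.423% of all. These are matches of letters, and the arrays measured no binding.

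Sex made no difference that passed in these genes. Over the 4 combinations of diet and genotype, 0 of the 73 genes differed between females and males by limma, against 0.267% of all genes, and 3 had an unadjusted p below 0.05. The female minus male differences ran between -0.13 and 0.09, and their 95% intervals lay between -0.27 (Ndufa6) and 0.26 (Ndufaf4). The HCM difference by sex passed by limma for 0 genes (3 at an unadjusted p below 0.05) and for 0% of all genes, as did the casein difference by sex (11 at an unadjusted p below 0.05). Their 95% intervals were wider. They lay between -0.66 (Sdha) and 0.50 (Atp5pb) for HCM by sex, and between -0.88 (Sdha) and 0.54 (Ndufc2) for casein by sex. On casein against soy in HCM hearts, 41 genes rose and 4 fell in females (23.0% and 21.1% of all genes), and 44 rose and 4 fell in males (25.8% and 23.5%). In wt hearts, 33 rose and 2 fell in females (11.3% and 13.7%), and 54 rose and 6 fell in males (19.5% and 20.5%). In HCM against wt on casein, 26 rose and 11 fell in females (18.6% and 15.1%), and 15 rose and 12 fell in males (18.2% and 14.1%). On soy, 1 rose and 3 fell in females (2.10% and 2.01%), and 9 rose and 5 fell in males (7.25% and 6.22%). Ndufb8 differed between HCM and wt on casein by 0.66 in females and 0.59 in males, and Ndufv1 by -0.85 in females and -0.62 in males.

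Probe sets of one gene did not always move together. Of the 73 genes, 21 had several probe sets. On casein against soy in HCM hearts, 14 genes had at least 2 probe sets past the threshold, and in 4 of them the directions were opposite. In wt hearts this was so for 4 of 11, in HCM against wt on casein for 2 of 9 and on soy for 3 of 4. Ndufb8, Cox7a1 and Ndufv1 each had 1 probe set, so their values have no second reading on these arrays. Atp5g2, Cox4i1, Cox8b, Cox8c and Ndufv2 each had 2 probe sets, and only the brighter of each is reported here. Their directions rest on that probe set.

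Other mitochondrial genes were counted in the same way, beside 31.9% higher and 30.1% lower of all genes on casein in HCM hearts, and 21.6% and 25.4% in wt hearts. Of 61 genes for mitochondrial ribosomal proteins, which translate the chain subunits encoded in mitochondrial DNA, 48 rose and 5 fell on casein in HCM hearts (median 0.57), and 32 rose and 3 fell in wt hearts (median 0.20). In HCM against wt on casein 40 rose and 6 fell, against 26.9% and 22.7% of all genes. On soy 1 rose and 7 fell, against 12.3% and 12.7% of all genes, so the soy falls lie near the background. Mrpl24, of the large subunit, rose by 1.24 ± 0.12 on casein in HCM hearts (adjusted p = 4.51e-10). Of 13 tricarboxylic acid cycle genes, 5 rose and 3 fell on casein in HCM hearts, and 11 rose and 0 fell in wt hearts. In HCM against wt on casein 3 of them rose and 5 fell, against 26.9% and 22.7% of all genes. The counts of this list in HCM hearts lie near the background. Ogdh, which encodes the first component of 2-oxoglutarate dehydrogenase, fell by 0.60 (SE 0.06, adjusted p = 5.39e-09) in HCM hearts on casein and rose by 0.44 ± 0.07 (adjusted p = 2.8e-05) on soy. Of 22 assembly and coenzyme Q genes, 13 rose and 3 fell on casein in HCM hearts. Uqcc2, a complex III assembly factor, rose by 1.56 ± 0.08 (adjusted p = 9.95e-16), and Coq7, of coenzyme Q synthesis, by 1.36 ± 0.10 (adjusted p = 5e-12).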

How the data were processed

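Total RNA of mouse left ventricle, pooled from 2 animals per sample, was hybridized to 30 Affymetrix arrays. The deposited log2 values, 1 per probe set, came from RMA. Per the submitters' processing notes, the authors used Affymetrix Expression Console. Its version is not given in the sources used here. Scanner files were not analysed here; detection calls were not used, and the number of arrays limits the precision. Samples were grouped by sex, diet and genotype from their labels. Probe sets with 1 gene symbol in the platform annotation (10833 of 12488) were used; those with several (396, of which 10 hold a gene of the chain) were not. The brightest probe set over all arrays stood for a gene, which left 8251 genes.

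One limma model (R 4.3.3, limma 3.58.1, statmod 1.5.0) with 8 group means was fitted to the 30 arrays together (22 residual and 6.16 prior degrees of freedom) with lmFit and eBayes, and was tested on simulated data. Tests were two-sided with Benjamini-Hochberg adjustment over all genes within a comparison and a threshold of 0.05. Differences are HCM minus wt, casein minus soy or female minus male, averaged over the sexes or over the 4 combinations, and the interaction is the HCM difference on casein minus that on soy. Alternatives were all probe sets, a filter on the dimmest 40% of genes, added quantile normalization, median centring, means of probe sets, a replicate block, the array set as a random block, leaving out either casein wt set, fits of the compared groups only, and leaving out each array. The planned change of background correction could not be run on summarised values. The genes, lists and tests were chosen with earlier results of these data known; the brightness bins, the comparison of sets A and B and the promoter words were added after seeing the data, and the NRF-1 and YY1 words were shortened after a first search with longer forms. Genes with full values were the 3 largest changes each way per comparison, the isoform pairs of complex IV, Cyc1, Cycs, the Sdh genes, any gene that passed by sex and the 5 strongest interactions. Ndufb11, Ndufv2, Uqcrc1, Uqcrh, Atp5e and Atp5g2, outside that rule, were chosen after their values were seen. Of the other mitochondrial lists, the 2 largest changes per list and comparison may be named. Replicate numbers of the titles did not pair samples: of 99 same-numbered pairs, 25 correlated above 0.1 and the median was -0.002.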

Additional observations from a re-analysis of the deposited data

Results flagged for a closer look

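Single arrays stood apart from the rest of their group in 11 of 162 tests of groups of 4 arrays, where chance flags about 1 in 20. Of these, 7 were male soy wt replicate 2, whose 95th percentile of other genes (9.15) and median of the 73 genes (10.41) were also the lowest of all arrays. It was low for Cox6a1 (9.85), Cox6a2 (12.55), Cox7a1 (10.12), Ndufb8 (11.04), Sdha (7.68) and Sdhb (10.97) and high for the dim Cox8a (4.65). Without it, 13 genes of the chain fell in HCM hearts on soy, against 8 with it, and 1051 of all 8251 genes fell. The other arrays that stood apart were female casein wt replicate 1 for Atp5k (8.14), female casein HCM replicate 4 for Cox6c (12.00), female casein wt replicate 4 for Cox8c (8.11) and female soy wt replicate 1 for Sdha (8.99).

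The HCM difference changed with diet, by the test of the interaction, for 33 genes of the chain, at a share (45.2%) equal to the background of 45.1%, and for 13 with the sets of arrays fitted as random blocks. Under those blocks 1015 of all 8251 genes were positive and 852 negative. The HCM difference on casein minus that on soy was positive for Ndufb8 (1.01), Cox7a1 (0.99), Ndufa6 (0.72), Atp5k (0.64), Cox6a1 (0.34), Cox7a2l (0.30), Sdhb (0.26) and Atp5g1 (0.25). It was negative for Cox6b2 (-1.35), Ndufv1 (-0.93), Cox8c (-0.69), Cox4i1 (-0.68), Sdhc (-0.60), Sdha (-0.55), Uqcrb (-0.34) and Cox6a2 (-0.19). The interaction of Atp5g1 turned to -0.26 with the mean of its probe sets, and the other probe sets of Cox6b2 gave 0.23 and 0.43. Among the genes of the 33 not yet listed, the values farthest from 0 were those of Uqcr11 (0.62), Atp5g2 (-0.50), Uqcrh (0.46) and Ndufaf4 (0.44).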

How the results depend on the processing

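The counts of genes called on casein against soy kept to within 1.5 times under most alternatives, and adding quantile normalization moved them most. It gave 15 lower in HCM hearts (main 5), 29 higher and 9 lower in wt hearts (main 53 and 4), 23 lower in HCM against wt on casein (main 14) and 18 lower on soy (main 8). It moved the median difference to 0.18 in HCM hearts (main 0.36) and 0.07 in wt hearts (main 0.32). With the sets of arrays fitted as random blocks (consensus correlation 0.167), 18 rose and 9 fell in HCM hearts on casein (main 29 and 14), 1 rose and 3 fell on soy (main 12 and 8), 2 fell on casein in wt hearts (main 4), and 13 genes had an interaction of HCM and diet (main 33). The counts over all 8251 genes fell too, to 1381 and 1038 in HCM hearts on casein and 158 and 101 on soy. Only the split of casein wt could inform that correlation, so the blocks cannot separate a set from its diet and genotype. Without casein wt set A, 14 rose in HCM hearts on casein, as did 2054 of all 8251 genes. Without the dimmest 40% of genes, 5 fell in HCM hearts on soy. The cause was not tested. Leaving out each array in turn gave 27 to 33 higher and 12 to 16 lower in HCM on casein, 8 to 16 higher and 7 to 13 lower in HCM on soy, 47 to 54 higher and 4 to 6 lower on casein in HCM hearts, 50 to 54 higher and 4 to 6 lower on casein in wt hearts, 28 to 41 interactions, and 0 genes by sex. With the replicate number as a block, 29 rose and 13 fell in HCM against wt on casein, 13 and 7 on soy, 51 rose and 5 fell on casein in HCM hearts, 52 and 4 in wt hearts, and 32 genes had an interaction; 8 of 30 arrays correlated best with their own number. Of 86 called differences of single genes, the sign turned with the mean of probe sets for the interaction of Atp5g1 (-0.26), Cyc1 on casein in HCM (-0.034) and wt hearts (-0.29) and Ndufb2 in HCM on casein (0.10). It turned with quantile normalization for Cox6a2 (-0.19) and Ndufb2 (-0.10) on casein in HCM hearts and for Cox7a1 (-0.034), Cox7a2 (-0.061), Ndufb8 (-0.016) and Sdhd (-0.11) on casein in wt hearts. With the sign kept, the set block ended 27 of the 86 calls, leaving out casein wt set B 10, quantile normalization 9, leaving out set A 6, the mean of probe sets 5, median centring 3 and the replicate block 1. Fits of the compared groups only ended 3 of 70. Signal over background was not analysed here, and the precision at dim genes such as Cox5a and Cox8a is unknown.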

Other observations

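Regulators of mitochondrial biogenesis gave counts near or below the background. Of 15 measured, 5 rose and 3 fell on casein in HCM hearts (31.9% and 30.1% of all genes), and 3 rose and 3 fell in wt hearts (21.6% and 25.4%). Ppara, a receptor for fatty acids that drives genes of fatty acid oxidation, averaged 6.56 and 6.57 in female and male casein HCM hearts, against 8.40 and 8.29 in female and male soy HCM hearts. It fell by 1.78 on the log2 scale (SE 0.23, limma adjusted p = 1.78e-07), and against casein wt, at 7.68 and 8.14, it fell by 1.34 (SE 0.21, adjusted p = 7.98e-06). Gabpa, a subunit of the ETS factor GABP, fell by 1.05 on casein in HCM hearts (SE 0.15, adjusted p = 7.48e-07) and rose by 0.54 ± 0.15 in HCM against wt on soy (adjusted p = 0.00993). Ppargc1a, a coactivator of biogenesis, rose by 0.65 ± 0.12 in HCM against wt on soy (adjusted p = 0.000305) and by 0.41 ± 0.11 on casein in wt hearts (adjusted p = 0.00288).

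Of 24 genes for mitochondrial import, chaperones and cristae, 18 rose and 2 fell on casein in HCM hearts (median 0.43), and 11 rose and 2 fell in wt hearts (median 0.16). Of all genes, 31.9% rose and 30.1% fell in HCM hearts, and 21.6% and 25.4% in wt hearts. Timm8b, a chaperone of the intermembrane space, rose by 1.49 ± 0.08 on casein in HCM hearts (adjusted p = 5.61e-15). Immt, the core of the complex that shapes cristae, fell by 0.89 on casein in HCM hearts (SE 0.07, adjusted p = 5.42e-12) and by 0.54 in wt hearts (SE 0.06, adjusted p = 6.29e-08).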
